A study of Mus musculus and Homo sapiens with 14 samples.

Results

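Human MM.1S myeloma cells that had received a guide RNA against IRF4 were set against the same line with an empty vector. The comparison uses 4 of the 14 libraries of the series, 2 per condition, chosen by the count columns that carry the line's name. MM.1S is an established human line whose source is given as bone marrow. Both groups were infected with Cas9, an enzyme that a guide directs to cut DNA, were treated with doxycycline and were sorted on day 3 after deletion. The guide libraries are labelled Irf4 -/- and the empty vector libraries WT. The other 10 libraries of the series are mouse cells, 4 of them from the plasmacytoma line MPC-11 with the same design. The labels do not say whether the libraries of a group came from separate cultures, so p-values measure only the spread between these samples. Only a pair of libraries stands for each condition.

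IRF4 is a transcription factor of the interferon regulatory factor family that B cells need to become antibody-secreting plasma cells. Myeloma is a cancer of plasma cells, and many myeloma lines are known to depend on IRF4 for growth and survival. In such lines IRF4 is known to bind genes of the plasma cell programme, of the cell cycle and of metabolism, and MYC is a known target.

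Total counts were 19406056 and 21448419 in the guide libraries, against 21572315 and 19317115 in those of the empty vector. Values below are CPM, counts relative to library size after TMM scaling, which adjusts for differences in library composition, and fold changes are guide over empty vector on the log2 scale. The library of empty vector replicate 2 stood apart in breadth: 728 of the 12696 genes tested had no count there, against 129 to 176 in each of the other 3. Across genes, the log2 CPM correlated with Pearson's r = 0.939 within the guide pair and 0.895 within the empty vector pair. Between conditions r was 0.866 to 0.921, where genes are not independent replicates. Empty vector replicate 1 was thus closer to the guide libraries (r = 0.917 and 0.921) than to empty vector replicate 2. Plasma cell genes marked all 4 libraries: SDC1 (CD138) was at 796 and 820 CPM with the guide, against 785 and 949 CPM with the empty vector, and the secretory regulator XBP1 was at 2223 and 2238 CPM, against 2211 and 2249 CPM. The B cell genes PAX5 and MS4A1 had no count in any library. Markers of other blood and tissue cells were low apart from CD68 and HBD. The 12 T cell markers summed to 12 and 7.03 CPM with the guide, against 1.35 and 4.1 CPM with the empty vector, with 5 of them, CD3D, CD3G, CD4, CD8B and ZAP70, at 0 in all libraries. For 13 markers of macrophages and monocytes the sum was 79.6 and 61.5 CPM, against 81.2 and 63.7 CPM, nearly all of it CD68, and 7 of them, LYZ and C1QA included, were at 0 throughout. ITGAM (2.79 and 1.57 CPM, called by DESeq2) and CD14 (0.725 and 0.555 CPM) of that list had counts in both guide libraries, against 0 in both empty vector libraries, and their part in the results was not tested. The 11 erythroid markers summed to 44.6 and 46.0 CPM, against 71.1 and 76.3 CPM, mostly from HBD, with HBA1 and HBA2 at 0. Markers of NK cells, neutrophils and stromal cells summed to 0.278 to 5.18 CPM in every library.

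IRF4 transcripts were fewer with the guide but still present. IRF4 was at 142 and 191 CPM with the guide, against 489 and 434 CPM with the empty vector. The groups did not overlap, and its log2 difference stood at -1.47 ± 0.22 (SE; edgeR adjusted p = 0.199, DESeq2 adjusted p = 2.17e-08). Each SE here and below rests on 2 libraries per group. The edgeR quasi-likelihood test thus did not call IRF4 at 0.05, and of the 4 fits that left out 1 library, those without an empty vector library called it. The edgeR adjusted p was 0.686 without guide replicate 1 and 0.907 without guide replicate 2, against 0.00731 without empty vector replicate 1 and 0.0114 without empty vector replicate 2. In each such fit a group is left with 1 library, which is assumed to vary like those of the other group, as in every value below that leaves out one. Gene counts cannot show whether the guide's site was cut. In bulk libraries, a lower level in every cell cannot be told apart from loss of the transcript in some cells.

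Of the other family members described here, IRF1, IRF2, IRF3, IRF5, IRF7, IRF8 and IRF9, none was called by either tool and none had an unadjusted edgeR p under 0.05. IRF9, a subunit of the interferon-activated factor ISGF3, was at 45.8 and 46.9 CPM with the guide, against 33.4 and 29.5 CPM (log2 fold change 0.56 ± 0.24, SE). IRF1, an interferon-induced activator, was at 222 and 254 CPM, against 196 and 136 CPM (0.52 ± 0.24, or 0.81 without empty vector replicate 1 and 0.26 without empty vector replicate 2). Those 2 did not overlap between groups, with the guide higher, as in 22.4% of all genes tested. IRF2, IRF3, IRF5, IRF7 and IRF8 overlapped, with log2 fold changes between -0.06 for IRF5 and 0.42 for IRF8. IRF8, which is best known from earlier B cell stages, was at 9.32 and 13.1 CPM with the guide, against 6.25 and 10.5 CPM, and its fold change was 0.10 without empty vector replicate 1 and 0.82 without empty vector replicate 2. The signs for IRF2, IRF3, IRF5 and IRF7 turned when 1 empty vector library was left out.

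Of the 12696 genes tested, edgeR called 1 lower (0.00788%) and 0 higher (0%) at an adjusted p under 0.05. DESeq2 called 195 higher (1.54%) and 179 lower (1.41%). At an unadjusted edgeR p under 0.05 there were 688 higher genes (5.42%) and 582 lower genes (4.58%), 1270 in all. In 2847 genes (22.4%) both guide libraries lay above both empty vector libraries, and in 2398 (18.9%) both lay below. Counts given below for each gene list are to be read beside these shares over all genes. The tools differ in how they treat the spread of a gene measured in so few libraries. Adjusted p values of both are therefore given for many, but not all, of the genes named below. Adjusted p was under 0.10 in edgeR for 11 genes. The number called by edgeR was 966 without empty vector replicate 1, 117 without empty vector replicate 2, 2 without guide replicate 1 and 0 without guide replicate 2.

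**Figure D1:**
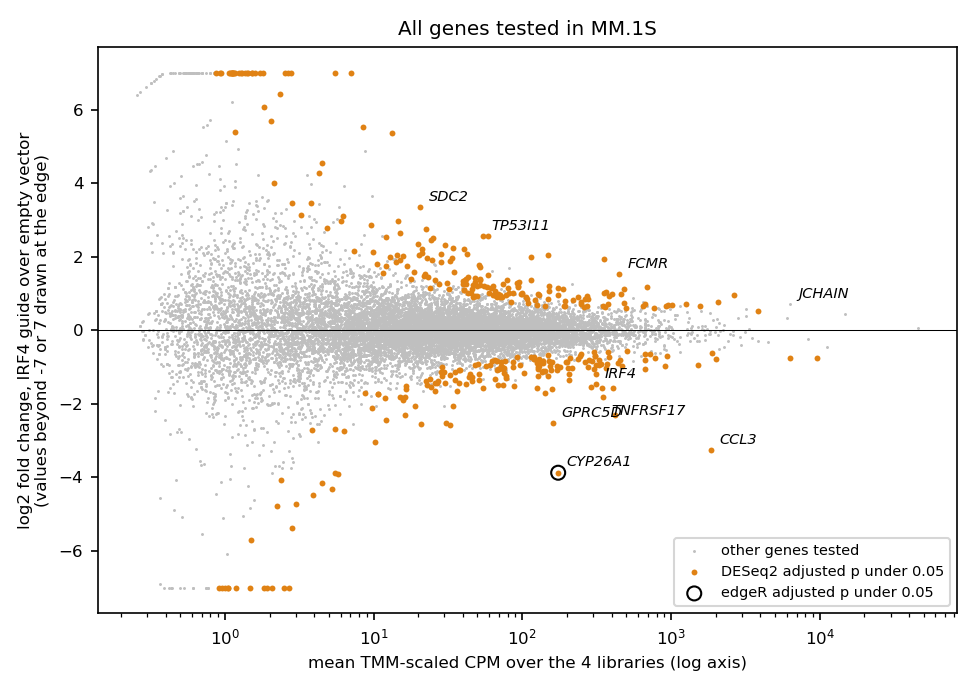
Log2 fold change (IRF4 guide over empty vector) against mean CPM on a log axis for all 12696 genes tested in MM.1S, with orange points for the 374 genes called by DESeq2 and a ring for the gene called by edgeR. Genes with no count in 1 group are drawn by a fitted value that is no bound, many at the edge, and CYP26A1, CCL3 and GPRC5D are the labelled genes farthest below 0.

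The gene that fell was CYP26A1, a cytochrome P450 that breaks down retinoic acid. It was at 25.1 and 19.5 CPM with the guide, against 338 and 316 CPM with the empty vector. Each group was narrow and they lay far apart, and the log2 fold change was -3.88 ± 0.24 (SE), which passed both tools (edgeR adjusted p = 0.0180, DESeq2 adjusted p = 1.16e-61). The fold change ran from -4.07 to -3.71 when any 1 library was left out, though edgeR made no call without guide replicate 2. Of 23 genes of the retinoic acid pathway, 9 had enough counts to test and CYP26A1 was the only one called by either tool or with an unadjusted edgeR p under 0.05. RARA, the receptor alpha, was at 118 and 51.1 CPM with the guide, against 105 and 61.2 CPM, and RXRA, a partner receptor, at 5.38 and 6.66 CPM, against 13.3 and 6.84 CPM. The retinal reductase DHRS3 (3.42 and 0.416 CPM, against 9.89 and 0.778 CPM) and the receptor RARG (17.3 and 22.2 CPM, against 20.9 and 9.07 CPM) overlapped between groups, and the sign of the fold change of each turned when 1 empty vector library was left out, as it did for RARA. CYP26B1, CYP26C1 and CRABP2 were among 10 members with no count in any library.

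The genes for the inflammatory chemokines CCL3 and CCL4 were lower with the guide, CCL3 being among the more abundant transcripts of the empty vector cells. CCL3, also called MIP-1 alpha and known in myeloma for driving bone resorption, was at 439 and 262 CPM with the guide, against 3865 and 2866 CPM with the empty vector. All guide values were far below the empty vector values (log2 fold change -3.26 ± 0.30, SE; edgeR adjusted p = 0.0776, DESeq2 adjusted p = 8.98e-28). CCL4 was at 12.2 and 6.06 CPM, against 59.1 and 45.4 CPM (-2.52 ± 0.40; edgeR adjusted p = 0.202, DESeq2 adjusted p = 3.13e-06). CCL3L3, a near copy of CCL3, was at 178 and 104 CPM, against 801 and 603 CPM (-2.32 ± 0.31). Reads of CCL3 and CCL3L3 may have been divided between the copies, as may those of CCL4 and CCL4L2, so the levels of single copies are uncertain. The receptor CXCR3 was also lower, at 69.9 and 55.9 CPM, against 127 and 156 CPM (-1.17 ± 0.23; edgeR adjusted p = 0.239, DESeq2 adjusted p = 0.000501).

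Not every chemokine gene was lower. Of 21 chemokine and receptor genes listed, 13 were tested, and DESeq2 called 2 higher and 4 lower while edgeR called 0 in each direction. The same 2 and 4 counts were found at an unadjusted edgeR p under 0.05. The 2 higher were the interferon-inducible CXCL10, at 42.7 and 21.9 CPM with the guide, against 4.67 and 11 CPM (log2 fold change 2.05 ± 0.53, SE), and the membrane chemokine CXCL16, at 90.0 and 70.1 CPM, against 44.8 and 34.6 CPM (1.01 ± 0.26). The list's median log2 fold change was -0.17, beside 0.01 over all genes tested, and it was 0.01 without guide replicate 2.

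Beyond CYP26A1 and the chemokines, the largest lower values were found in genes of varied function. Among 158 lower genes that had counts in every library, did not overlap, reached 10 CPM on average in 1 group and passed DESeq2, SMOC1, a secreted matrix protein, led by fold change. SMOC1 was at 0.673 and 0.324 CPM with the guide, against 10.03 and 10.01 CPM with the empty vector (log2 fold change -4.32 ± 0.68, SE). SYNJ2, an inositol phosphatase of membrane traffic, had 0.362 and 1.06 CPM, against 10.4 and 11.4 CPM (-3.92 ± 0.71), and the ESCRT-I subunit gene MVB12B had 0.983 and 0.416 CPM, against 10.03 and 10.6 CPM (-3.88 ± 0.67). These guide levels rest on few counts. At higher levels, CAV2, a caveolin, was at 10.7 and 7.96 CPM, against 59.3 and 52.1 CPM (-2.58 ± 0.29; edgeR adjusted p = 0.0996, DESeq2 called). The kinase gene HUNK (-3.05 ± 0.79), RUSC2 (-2.75 ± 0.62) and the ubiquitin ligase gene RNF157 (-2.43 ± 0.36) completed the lower genes of this size together with ALDH1L2, CCL3, CCL4 and GPRC5D. HUNK was at 0.673 and 3.70 CPM with the guide, and its fold change was -2.30 without guide replicate 1 and -4.75 without guide replicate 2. Leaving out 1 library gave -4.93 to -3.89 for SMOC1, -4.9 to -3.35 for SYNJ2 and -4.61 to -3.39 for MVB12B.

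The higher genes were led by lowly expressed ones. Of 154 that met the same conditions in the other direction, FRMD3, a gene with a FERM domain, was at 22 and 30.02 CPM with the guide, against 0.140 and 1.14 CPM with the empty vector (log2 fold change 5.35 ± 0.83, SE). Its fold change was 4.51 without empty vector replicate 1 and 7.46 without empty vector replicate 2. SDC2, the heparan sulphate proteoglycan syndecan 2, was at 28.1 and 47.1 CPM, against 2.57 and 4.87 CPM (3.34 ± 0.46). The related SDC1 had no such difference, as its values above overlapped. TP53I11, a gene first described as induced by p53, was at 96.2 and 88.9 CPM, against 17.1 and 14.3 CPM (2.56 ± 0.25; edgeR adjusted p = 0.0776). SYTL2, an effector of vesicle exocytosis, was at 38.3 and 46.9 CPM, against 7.98 and 6.90 CPM (2.52 ± 0.30; edgeR adjusted p = 0.0996). CX3CR1, the fractalkine receptor and a known MAF target in myeloma, was at 37.8 and 40.3 CPM, against 7.70 and 3.79 CPM (2.76 ± 0.41; edgeR adjusted p = 0.199, DESeq2 adjusted p = 1.29e-06). The guide libraries were above both empty vector libraries in each of these 5, as the conditions for choosing them required.

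The other 7 of the largest higher genes spanned log2 fold changes of 2.53 for KLHL4 to 3.10 for LINC01512. They were ZMAT3 (2.97), the heat shock factor gene HSF4 (2.96), the semaphorin receptor gene PLXND1 (2.85), NLRP5 (2.65) and LOC100420587 (2.56), besides those 2. The empty vector libraries of HSF4 (5.41 and 1.24 CPM), PLXND1 (0.793 and 3.89 CPM) and LINC01512 (2.01 and 0.570 CPM) differed several-fold from each other. Without empty vector replicate 2 the fold change was 2.25 for HSF4, 4.38 for PLXND1 and 2.45 for LINC01512, and without replicate 1 it was 4.39 for HSF4, 2.11 for PLXND1 and 4.28 for LINC01512. LOC100420587 carries no protein name in the table, and reads shared with a related gene would make its level uncertain.

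**Figure D2:**
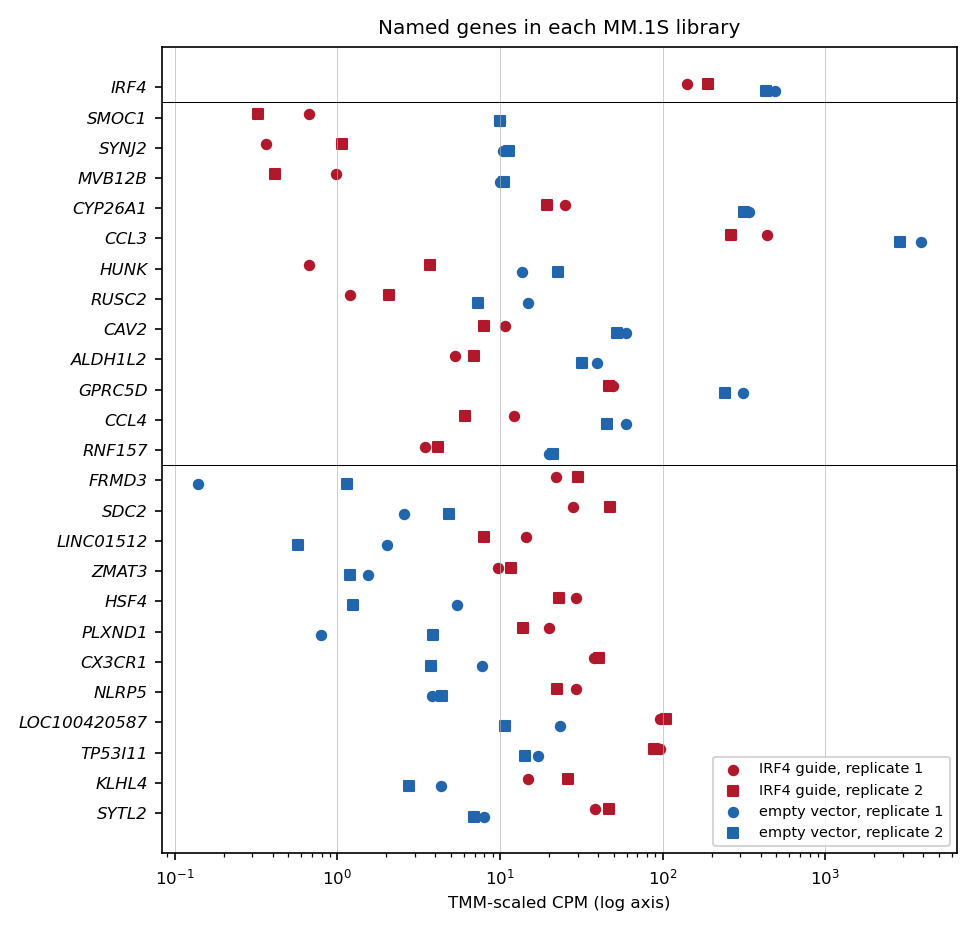
CPM on a log axis in each MM.1S library (red, IRF4 guide; blue, empty vector; circles, replicate 1; squares, replicate 2) for IRF4, the 12 lower and the 12 higher genes with the largest fold changes under the rule. Every gene shown has both guide values on one side of both empty vector values, which the rule required of all but IRF4.

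Some genes had counts in 1 condition only. DESeq2 called 29 genes with no count in either empty vector library and 12 with no count in either guide library. BRINP2, a neural cell cycle inhibitor, was at 12.5 and 15.6 CPM with the guide and had no count with the empty vector, at least 192-fold higher against a floor of 3 counts over the group. KRT15, an epithelial keratin, was at 7.92 and 14.1 CPM (at least 151-fold higher), and the zinc finger gene ZNF329 at 4.71 and 6.43 CPM (at least 76.2-fold higher), each with no count in the empty vector libraries. In the other direction, RHBDF1, an inactive rhomboid protein, had no count with the guide, against 3.22 and 7.57 CPM with the empty vector (at least 72.1-fold lower). ESR1, the estrogen receptor, had no count with the guide, against 1.07 and 7.26 CPM (at least 54.6-fold lower). None of these was called by edgeR, and these floors cover counting error only.

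Genes of the plasma cell surface differed in direction, and those of 3 antigens used as targets of myeloma therapy were lower with the guide. GPRC5D, an orphan receptor that bispecific antibodies target, was at 49.2 and 46.9 CPM with the guide, against 311 and 242 CPM with the empty vector (log2 fold change -2.52 ± 0.22, SE; edgeR adjusted p = 0.0776, DESeq2 adjusted p = 2.82e-25). TNFRSF17, which encodes BCMA, the receptor for APRIL, was at 170 and 138 CPM, against 442 and 638 CPM (-1.81 ± 0.25; edgeR adjusted p = 0.162, DESeq2 adjusted p = 2.39e-10). SLAMF7, the target of elotuzumab, was at 537 and 427 CPM, against 910 and 788 CPM (-0.82 ± 0.20; edgeR adjusted p = 0.295, DESeq2 adjusted p = 0.00417). None of the 3 overlapped between groups. CD38 was low in this line, at 33.0 and 15.0 CPM, against 23.9 and 16.3 CPM, with groups that overlapped. FCRL5 went the other way, with the highest log2 fold change of the 29 surface genes tested, 3.06. Its unadjusted edgeR p was under 0.05, and neither tool called it.

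The adhesion and costimulation genes of the same list went in both directions. CD86, a ligand of CD28, was at 79.3 and 67.3 CPM with the guide, against 31.5 and 30.6 CPM (log2 fold change 1.24 ± 0.23, SE; edgeR adjusted p = 0.220, DESeq2 adjusted p = 0.000831). ICAM1, the ligand of LFA-1, was at 194 and 135 CPM, against 81.2 and 45.9 CPM (1.37 ± 0.34; DESeq2 adjusted p = 0.00516). CD44, the hyaluronan receptor, was lower at 484 and 555 CPM, against 847 and 788 CPM (-0.65 ± 0.17; DESeq2 adjusted p = 0.0109). Of 29 surface genes tested of 33, DESeq2 called 2 higher and 4 lower and edgeR 0 (unadjusted edgeR p under 0.05, 3 higher and 5 lower), with a median log2 fold change of 0.05, and -0.10 without empty vector replicate 2.

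Plasma cell identity genes as a group were spread. Of 30 tested, 11 were higher and 19 lower, DESeq2 called 0 higher and 4 lower, edgeR called 0 (unadjusted, 4 higher and 8 lower), and the median log2 fold change was -0.18, or -0.36 without guide replicate 1 and -0.32 without empty vector replicate 2. PRDM1, which encodes BLIMP-1, the repressor that closes the B cell programme, was at 144 and 127 CPM with the guide, against 246 and 175 CPM, and neither tool called it (log2 fold change -0.63 ± 0.24, SE). Its value was -0.37 without empty vector replicate 1. JCHAIN, which joins IgA and IgM units, went the other way at 7314 and 8328 CPM, against 3844 and 5714 CPM (0.71 ± 0.21; edgeR adjusted p = 0.340, DESeq2 adjusted p = 0.0702), and its fold change was 0.46 without empty vector replicate 1 and 1.0 without empty vector replicate 2.

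Immunoglobulin transcripts took a smaller share of all counts in guide libraries, 2.90% and 2.41%, against 4.2% and 3.93% in empty vector libraries. The guide minus empty vector difference of means was -1.41 percentage points, with the groups apart, and the two-sided exact permutation p of 0.33 is the smallest that 2 libraries per group allow. Lambda light chain genes made up most of it. IGLL5, whose reads can come from the lambda constant genes, was at 9869 and 9065 CPM, against 13696 and 12118 CPM (log2 fold change -0.45 ± 0.13, SE; edgeR adjusted p = 0.338, DESeq2 adjusted p = 0.130). IGLV2-14, a variable gene of a family of near copies, was at 8031 and 6214 CPM, against 12783 and 11262 CPM (-0.76 ± 0.16; edgeR adjusted p = 0.259, DESeq2 adjusted p = 0.00859). Which member of that family produced the reads is uncertain. The heavy chain gene IGHG1 went the other way, at 552 and 519 CPM with the guide, against 429 and 443 CPM, without a call by either tool. Constant region genes with JCHAIN held 1.81% and 1.84%, against 1.83% and 1.88% (difference of means -0.0291 percentage points, exact permutation p = 0.667), JCHAIN alone holding 0.729% and 0.840%, against 0.382% and 0.571%. Of 12 such genes tested, 7 were higher and 5 lower, 1 and 3 of them at an unadjusted edgeR p under 0.05, with a median of 0.29, which was 0.09 without guide replicate 1, 0.37 without guide replicate 2, and -0.11 over the 2 members left in a fit without immunoglobulin genes. DESeq2 called IGLL1 alone, a surrogate light chain gene close in sequence to the lambda constant genes, at 98.4 and 76.5 CPM, against 164 and 161 CPM (-0.89 ± 0.22; edgeR adjusted p = 0.304). IGLC7, another lambda constant gene, was at 32.1 and 22.6 CPM, against 45.4 and 48.8 CPM.

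B cell genes were mostly higher. Of 38 listed, 25 were tested, 20 higher and 5 lower, with a median log2 fold change of 0.50. Both guide libraries lay above both empty vector libraries in 14, beside 22.4% of all genes tested. DESeq2 called 1 higher, beside 1.54% over all genes, and edgeR 0. At an unadjusted edgeR p under 0.05 there were 5 higher and 2 lower genes. The 2 lower were KLF2, with the list's lowest log2 fold change, -1.67, and FOXO1. FOXO1 was at -1.01 in the joint fit with MPC-11 described below. FCMR, the Fc receptor for IgM, was the one called, at 677 and 652 CPM with the guide, against 239 and 224 CPM (log2 fold change 1.52 ± 0.17, SE; edgeR adjusted p = 0.0996, DESeq2 adjusted p = 3.58e-15). SPI1, the transcription factor PU.1, was at 36.5 and 38.4 CPM, against 19.1 and 10.1 CPM, the B cell receptor subunit gene CD79B at 75.8 and 61.9 CPM, against 35.9 and 41.2 CPM, and the E protein inhibitor gene ID3 at 27.8 and 20.03 CPM, against 6.21 and 11.6 CPM. None of these 3 passed either tool. PAX5, MS4A1, CD22, FCER2, TCL1A, CD24 and BANK1 were among the genes of the list with no count in any library.

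Genes of MHC class II presentation leaned lower. Of 16 tested, 12 were lower and 4 higher, the median was -0.36, DESeq2 called 1 lower and edgeR 0 (unadjusted, 1 higher and 3 lower). HLA-DRA, the DR alpha chain, was at 323 and 257 CPM with the guide, against 441 and 521 CPM (log2 fold change -0.73 ± 0.21, SE; edgeR adjusted p = 0.331, DESeq2 adjusted p = 0.0221). CIITA, the coactivator that class II transcription needs, was at 4.09 and 11.5 CPM, against 19.5 and 17.5 CPM, without a call. HLA-DRB1 was at 79.6 and 52.9 CPM, against 116 and 109 CPM, its reads not being separable with certainty from those of related DRB genes. HLA-DPA1 was at 147 and 106 CPM, against 191 and 193 CPM, while the protease gene CTSS was higher, at 66.8 and 78.0 CPM, against 51.3 and 36.7 CPM. The list's median was -0.65 without guide replicate 1 and -0.21 without guide replicate 2.

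DNA replication had the most DESeq2 calls of the 28 lists by number, all of them lower, but the lists differ in size. The chemokine list had a larger share called, with 2 higher and 4 lower among 13 tested. Of 39 genes, 37 were lower and 2 higher with the guide, and the median log2 fold change was -0.79. In 30 the groups did not overlap in the lower direction, beside 18.9% of all genes tested. At an unadjusted edgeR p under 0.05 there were 24, beside 4.58% lower over all genes. DESeq2 called 12, beside 1.41% lower over all genes, and edgeR 0 after adjustment. RRM2, the ribonucleotide reductase subunit that makes deoxynucleotides, was at 178 and 235 CPM with the guide, against 450 and 775 CPM (log2 fold change -1.57 ± 0.30, SE; edgeR adjusted p = 0.220, DESeq2 adjusted p = 2.09e-05). MCM6, a subunit of the replicative helicase, was at 81.4 and 92.1 CPM, against 169 and 207 CPM (-1.11 ± 0.21; edgeR adjusted p = 0.220, DESeq2 adjusted p = 0.000138). The helicase subunit genes MCM7 (255 and 373 CPM, against 554 and 683 CPM) and MCM4 (144 and 237 CPM, against 356 and 522 CPM) were lower in the same way, at -0.98 and -1.20. The members' summed level was 3000 and 4020 CPM, against 5350 and 7130 CPM, so the libraries also differed within each condition.

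Genes of G1 control were lower in 15 of 20 tested, with a median of -0.53, and DESeq2 called 4 of them and edgeR 0, with 8 at an unadjusted edgeR p under 0.05. CCND2, a D-type cyclin gene and a MAF target, was at 571 and 659 CPM with the guide, against 1104 and 1314 CPM (log2 fold change -0.97 ± 0.18, SE; edgeR adjusted p = 0.220, DESeq2 adjusted p = 5.59e-05). Its kinase partner CDK6 was at 27.1 and 21.2 CPM, against 46.8 and 55.5 CPM. The cyclin E gene CCNE1 was at 15.8 and 23.8 CPM, against 39.7 and 61.8 CPM. The activator gene E2F2 was at 55.9 and 77.1 CPM, against 126 and 129 CPM. All 4 were called by DESeq2 and none overlapped. Genes of mitosis and the spindle differed less: 30 of 36 were lower, but the median was -0.23, and -0.06 without empty vector replicate 2. DESeq2 called 2 of them and edgeR 0 (3 unadjusted), the phosphatase gene CDC25B at 22.4 and 35.2 CPM, against 58.3 and 88.3 CPM, and the kinase gene AURKB at 88.8 and 90.7 CPM, against 131 and 167 CPM.

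**Figure D3:**
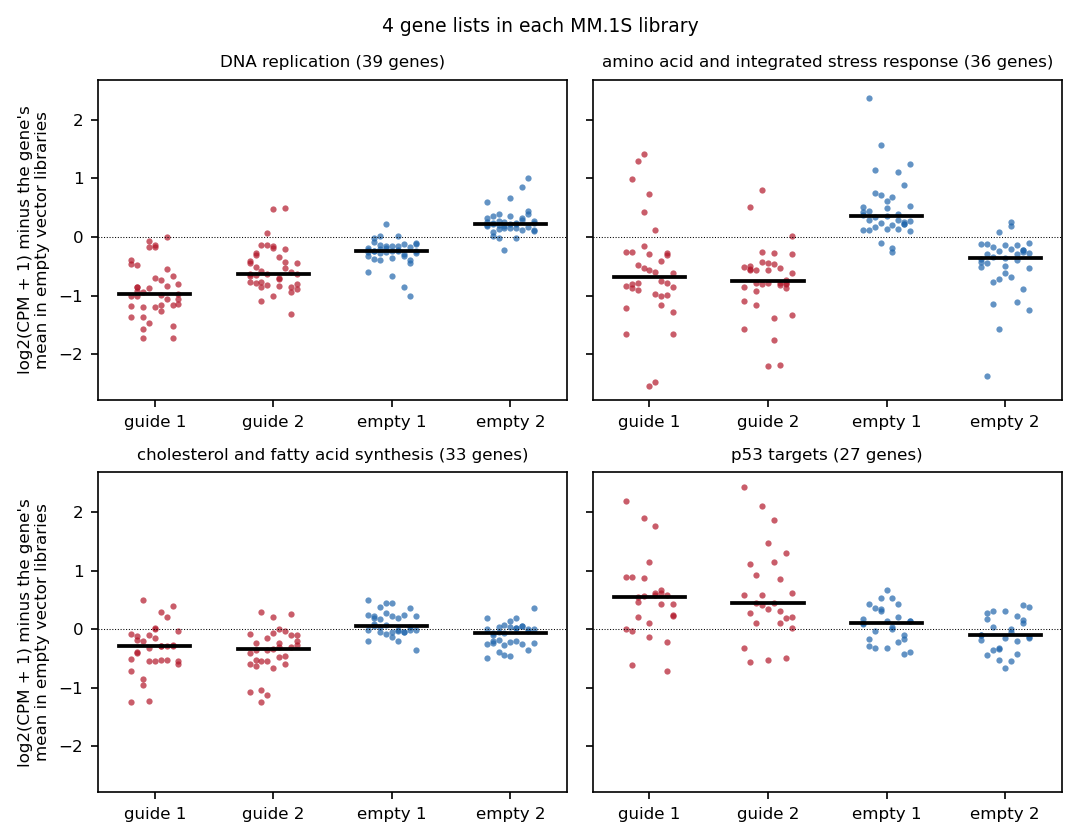
Log2(CPM + 1) minus the gene's mean over the empty vector libraries for each tested member of 4 lists in each MM.1S library (points; red, IRF4 guide; blue, empty vector) with the median as a bar. The replication medians lie lower in both guide libraries than in either empty vector library, the p53 target medians lie higher, and the amino acid medians of the empty vector libraries lie apart from each other.

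Genes of amino acid supply and the integrated stress response, which ATF4 drives, were lower in 32 of 36 tested, with a median log2 fold change of -0.76. Both guide libraries lay below both empty vector libraries in 24 of them, beside 18.9% of all genes tested. DESeq2 called 11 lower, beside 1.41% over all genes, and edgeR 0. At an unadjusted edgeR p under 0.05 there were 17 lower and 1 higher. ALDH1L2, a mitochondrial enzyme of folate metabolism, was at 5.28 and 6.94 CPM with the guide, against 39.3 and 32.0 CPM (log2 fold change -2.54 ± 0.32, SE; edgeR adjusted p = 0.128, DESeq2 adjusted p = 9.67e-08). PHGDH, the first enzyme of serine synthesis, was at 64.4 and 68.0 CPM, against 293 and 142 CPM (-1.72 ± 0.35; edgeR adjusted p = 0.257, DESeq2 adjusted p = 0.000108). The next enzyme of that pathway, PSAT1, was at 69.9 and 87.2 CPM, against 321 and 153 CPM, and the glycyl-tRNA synthetase gene GARS at 203 and 223 CPM, against 474 and 348 CPM. ATF4 itself was at 145 and 121 CPM, against 351 and 193 CPM (-1.03 ± 0.31; edgeR adjusted p = 0.343, DESeq2 adjusted p = 0.0295). Without empty vector replicate 1 the fold change was -1.10 for PHGDH, -0.96 for PSAT1 and -0.53 for ATF4, and without empty vector replicate 2 it was -2.17 for PHGDH, -2.05 for PSAT1 and -1.42 for ATF4.

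The empty vector libraries differed on this list. Its summed level was 4580 and 3940 CPM with the guide, against 8990 and 5240 CPM with the empty vector. The median was -0.37 without empty vector replicate 1 and -1.17 without replicate 2. The part of that library difference in the result was not tested.

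Sterol and fatty acid synthesis genes, targets of the SREBP factors, were lower in 28 of 33 tested, with a median of -0.34, or -0.19 without empty vector replicate 1, and DESeq2 called 4 lower and edgeR 0 (9 lower unadjusted). INSIG1, which holds back SREBP processing and is itself an SREBP target, was at 1114 and 972 CPM with the guide, against 2052 and 1943 CPM (log2 fold change -0.94 ± 0.16, SE; edgeR adjusted p = 0.220, DESeq2 adjusted p = 1.38e-05). The desaturase gene FADS1 was at 99.2 and 81.8 CPM, against 189 and 199 CPM, HMGCS1, an early enzyme of cholesterol synthesis, at 25.5 and 28.9 CPM, against 61.7 and 62.4 CPM, and the sterol isomerase gene EBP at 418 and 401 CPM, against 581 and 628 CPM. Replicates of these 4 genes lay close together in each group and the groups were apart.

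Glycolysis genes varied between replicates. Of 23 tested, 17 were lower with a median of -0.22, which was 0.07 without guide replicate 2 and -0.63 without guide replicate 1. The 1 gene called by DESeq2, and the 1 with an unadjusted edgeR p under 0.05, was HK1, a hexokinase, which was higher at 75.0 and 50.7 CPM, against 31.0 and 27.3 CPM (log2 fold change 1.11 ± 0.28, SE; edgeR adjusted p = 0.310, DESeq2 adjusted p = 0.0323), while HK2 was at 41.7 and 27.2 CPM, against 97.4 and 42.6 CPM, without a call by either tool. The kinase gene PDK1 and the enolase gene ENO2 overlapped between groups.

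Targets of p53 were mostly higher. Of 27 tested, 22 were higher and 5 lower, and the median log2 fold change was 0.52. In 17 the groups did not overlap in the higher direction, beside 22.4% of all genes tested. DESeq2 called 5 higher, beside 1.54% over all genes, and edgeR 0 (6 higher unadjusted). PLK3 had the list's lowest log2 fold change, -0.69, and PMAIP1 was at -0.54. CDKN1A was at -0.17 in the joint fit with MPC-11 described below, and none of these was called. FAS, the death receptor, was at 19.8 and 21.2 CPM with the guide, against 5.32 and 4.93 CPM (log2 fold change 2.00 ± 0.35, SE; edgeR adjusted p = 0.220, DESeq2 adjusted p = 0.00134). PHLDA3, an inhibitor of AKT, was at 31.6 and 36.6 CPM, against 10.03 and 5.86 CPM (2.10 ± 0.36; edgeR adjusted p = 0.220, DESeq2 adjusted p = 0.000302). ZMAT3, an RNA-binding protein, was at 9.78 and 11.7 CPM, against 1.54 and 1.19 CPM (2.97 ± 0.54; edgeR adjusted p = 0.220, DESeq2 adjusted p = 0.00103). The mitochondrial reductase gene FDXR was at 32.9 and 41.4 CPM, against 15.9 and 12.8 CPM (1.37 ± 0.29; edgeR adjusted p = 0.259, DESeq2 adjusted p = 0.0116). All 4 were separated between groups. Both groups received Cas9, and only the guide group a guide, so an effect of cutting and one of lower IRF4 cannot be told apart in this design.

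In the BCL2 family, which sets the threshold for apoptosis, neither tool called any of 13 genes, 0 had an unadjusted edgeR p under 0.05, and the median was 0.17, or 0.54 without empty vector replicate 1. BMF, a BH3-only activator of cell death, was at 45.6 and 53.1 CPM with the guide, against 37.8 and 22.6 CPM. BCL2L11, which encodes BIM, was at 100 and 76.6 CPM, against 77.2 and 38.0 CPM, and BBC3, which encodes PUMA, at 18.3 and 13 CPM, against 14.3 and 6.33 CPM, both overlapping. BCL2L1, which encodes the survival protein BCL-XL, was at 268 and 281 CPM, against 252 and 222 CPM.

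Interferon-stimulated genes were higher in 30 of 39 tested, with a median of 0.40, or 0.71 without empty vector replicate 1. DESeq2 called 2 of them higher and edgeR 0, with 6 higher and 1 lower at an unadjusted edgeR p under 0.05. DDX60, an RNA helicase of antiviral sensing, was at 3.93 and 6.2 CPM with the guide and had no count with the empty vector. The ADP-ribosyltransferase family gene PARP9 was at 14.3 and 19.1 CPM, against 0.7 and 0 CPM. Its partner DTX3L was at 16.5 and 20.2 CPM, against 6.25 and 8.97 CPM, and the antiviral GTPase gene MX1 at 86.0 and 99.8 CPM, against 59.4 and 48.1 CPM, neither called. All 4 genes had both guide values above both empty vector values.

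**Figure D4:**
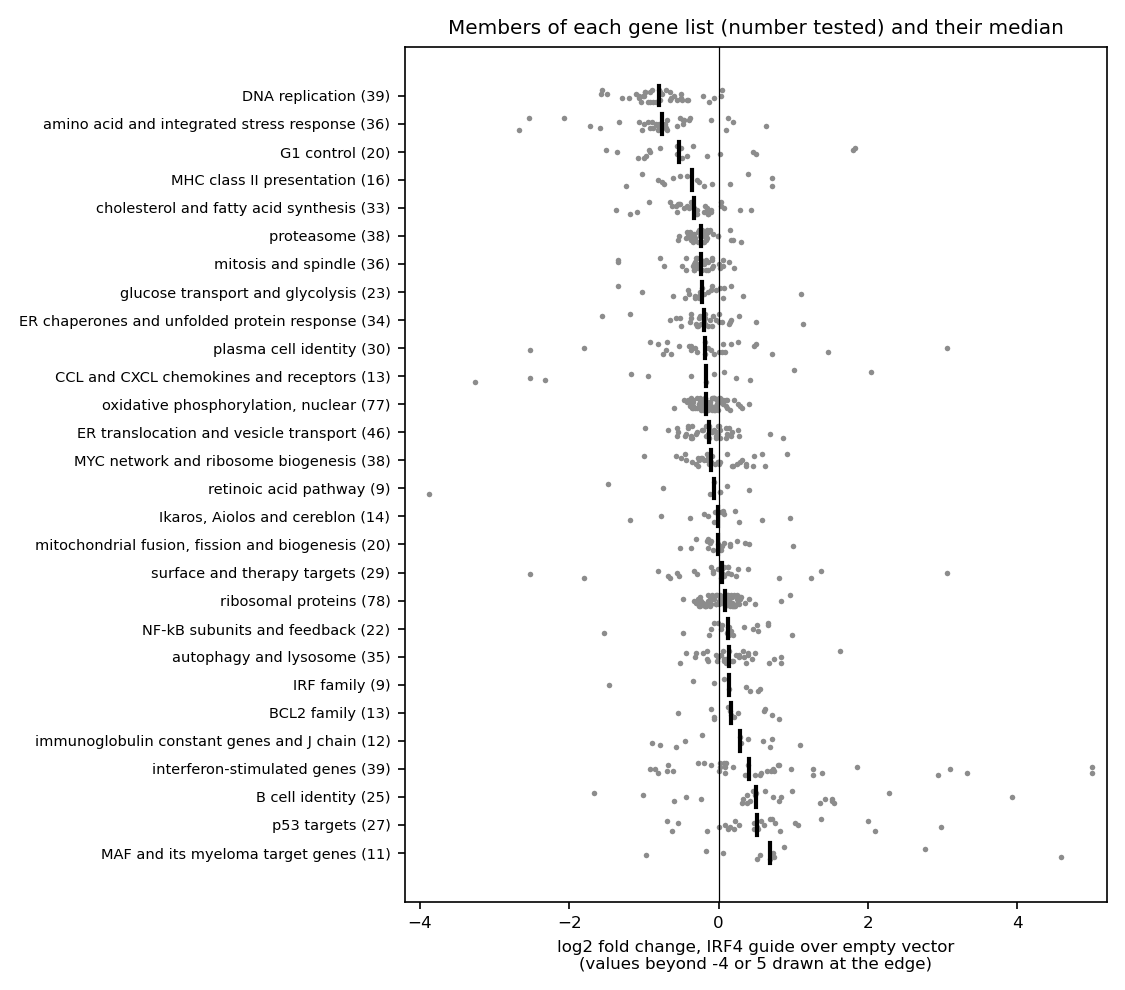
Log2 fold change (IRF4 guide over empty vector) of each tested member of 28 gene lists in MM.1S (points) with the list's median (bar), ordered by median and with the number tested in brackets. DNA replication (-0.79) and amino acid genes (-0.76) have the lowest medians, and MAF target genes (0.69) and p53 targets (0.52) the highest.

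Secretory machinery was slightly lower in most members. Of 34 genes of ER chaperones and the unfolded protein response, 25 were lower (median -0.19), DESeq2 called 2 lower and edgeR 0 (unadjusted, 1 higher and 4 lower). SEL1L, the scaffold of an ER degradation complex, was at 191 and 160 CPM with the guide, against 611 and 421 CPM (log2 fold change -1.56 ± 0.24, SE; edgeR adjusted p = 0.202, DESeq2 adjusted p = 1.12e-07). MANF, a stress-induced ER protein, was at 32.4 and 30.5 CPM, against 72.3 and 70.3 CPM (-1.18 ± 0.22; edgeR adjusted p = 0.220, DESeq2 adjusted p = 0.000703). HERPUD1 was at 1848 and 1606 CPM, against 2778 and 2145 CPM, and DERL3, an ER degradation factor of secretory cells, was higher at 390 and 422 CPM, against 290 and 283 CPM, without calls. Of 46 genes of ER translocation and vesicle transport, 34 were lower (median -0.12, or -0.07 without guide replicate 1 and -0.19 without guide replicate 2), and the retrieval receptor gene KDELR1 alone was called by DESeq2, at 94.5 and 78.3 CPM, against 162 and 180 CPM (-0.99 ± 0.21; edgeR adjusted p = 0.259, DESeq2 adjusted p = 0.00119).

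The large complexes had narrow distributions and hardly any calls. Of 77 nuclear genes of oxidative phosphorylation, 60 were lower, with a median of -0.17 that was 0.04 without empty vector replicate 2, and neither tool called any. At an unadjusted edgeR p under 0.05 there were 1 higher, SDHA, and 1 lower, NDUFB4. SDHA, the flavoprotein of complex II, was at 1279 and 1243 CPM with the guide, against 999 and 904 CPM, and NDUFB4 of complex I at 91.5 and 73.5 CPM, against 113 and 137 CPM. The 13 mitochondrially encoded genes are listed at 0 counts in all 4 libraries, so they say nothing of either condition. Of 20 genes of mitochondrial fusion, fission and biogenesis, 9 were higher and 11 lower (median -0.005), neither tool called any, and the coactivator gene PPARGC1B alone had an unadjusted edgeR p under 0.05, at 18.5 and 19.6 CPM, against 10.7 and 8.35 CPM. Of 38 proteasome genes, 34 were lower (median -0.24, and -0.05 without empty vector replicate 2), again with no call by either tool and 1 at an unadjusted edgeR p under 0.05, PSMB4 being at 138 and 173 CPM, against 203 and 246 CPM. Of 78 ribosomal protein genes, 49 were higher (median 0.08, and -0.09 without guide replicate 1), and DESeq2 called RPL13A, at 216 and 169 CPM, against 119 and 96.1 CPM (log2 fold change 0.84 ± 0.23, SE; edgeR adjusted p = 0.319).

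MYC was not lower with the guide: it was at 368 and 421 CPM, against 243 and 369 CPM with the empty vector. The groups overlapped by a small margin and neither tool called it (log2 fold change 0.37 ± 0.24, SE; edgeR adjusted p = 0.737, DESeq2 adjusted p = 0.740). The value was 0.10 without empty vector replicate 1 and 0.68 without replicate 2. Of 38 genes of the MYC network and ribosome biogenesis, 15 were higher and 23 lower (median -0.10, and 0.19 without empty vector replicate 2). DESeq2 called 2 members of the MXD family, which compete with MYC for its partner MAX, in opposite directions. MXD4 was at 289 and 333 CPM, against 194 and 136 CPM (0.91 ± 0.24; edgeR adjusted p = 0.310), and MXD3 at 19.3 and 19.2 CPM, against 39.0 and 38.0 CPM (-1.0 ± 0.25; edgeR adjusted p = 0.310).

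MM.1S is known to carry a translocation that activates MAF, a transcription factor of a myeloma subtype. MAF was at 40.2 and 33.6 CPM with the guide, against 22.2 and 23.4 CPM, without overlap or a call (log2 fold change 0.69 ± 0.26, SE). Of 11 tested MAF list genes, 9 were higher and 2 lower, DESeq2 called 2 higher and 1 lower and edgeR 0 (unadjusted, 6 higher and 1 lower), with a median of 0.69. Besides CX3CR1, the higher call was ARID5A, an RNA-stabilising factor, at 1702 and 1460 CPM, against 989 and 925 CPM (0.72 ± 0.17; edgeR adjusted p = 0.278, DESeq2 adjusted p = 0.00505). CCND2 was the lower one. ITGB7, the MAF-driven integrin, was among the most abundant transcripts, at 47307 and 46023 CPM, against 53609 and 36276 CPM, and overlapped.

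Among the targets of lenalidomide-type drugs, DESeq2 called IKZF3 and edgeR 0, and IKZF3 alone had an unadjusted edgeR p under 0.05. IKZF3, which encodes Aiolos, a factor that acts upstream of IRF4 in myeloma, was at 75.2 and 91.3 CPM with the guide, against 49.1 and 37.1 CPM (log2 fold change 0.95 ± 0.25, SE; edgeR adjusted p = 0.312, DESeq2 adjusted p = 0.0405). IKZF1, which encodes Ikaros, was at 140 and 142 CPM, against 120 and 112 CPM, without a call. Of 14 such genes 7 were higher and 7 lower, with a median of -0.01. Of 22 NF-kB genes tested, 16 were higher (median 0.13, and 0.31 without empty vector replicate 1) with no call by either tool and 2 higher at an unadjusted edgeR p under 0.05, the inhibitor genes NFKBIA (146 and 111 CPM, against 91.9 and 69.4 CPM) and TNFAIP3 (479 and 502 CPM, against 399 and 284 CPM). Autophagy and lysosome genes were higher in 24 of 35 (median 0.14, and 0.30 without empty vector replicate 1) with no call by either tool and 1 at an unadjusted edgeR p under 0.05, the protease gene CTSB at 945 and 753 CPM, against 593 and 475 CPM.

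The same experiment in the mouse line MPC-11 gave a test of whether the guide effect differed between lines. Genes were matched by symbol ignoring case, 11359 could be tested, and each pair of symbols is assumed to be orthologous. The edgeR test of the difference called 0 genes, with a smallest adjusted p of 0.0527, 712 genes at an unadjusted p under 0.05, and 100 calls by DESeq2. In that joint scale, IRF4 had a log2 fold change of -1.48 ± 0.32 in MM.1S and -1.20 ± 0.32 in MPC-11 (SE), a difference of -0.28 ± 0.45. The corresponding values for TNFRSF17 were -1.81 ± 0.28 and -1.42 ± 0.28, and for MCM6 -1.12 ± 0.26 and -1.05 ± 0.26. CYP26A1, CCL3, CCL4, GPRC5D, SDC2 and CX3CR1 are listed at 0 in all MPC-11 libraries, so they could not be compared.

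Among genes at 1 CPM or more on average in each line, 116 were called lower by DESeq2 in MM.1S, and 76 of these (65.5%) were also lower in MPC-11. Of 86 called higher, 52 (60.5%) were also higher. Over all 8181 such genes, 55.2% had the same sign in both lines. That share pools both directions, and none was taken for lower or higher genes alone. The replication list had a median of -0.80 in each line, with 36 of 39 members lower in both. For amino acid and stress response genes the medians were -0.78 in MM.1S and -0.10 in MPC-11, and for p53 targets 0.49 and 0.16. No list was tested for a difference between lines.

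The smallest p values of the difference belonged to TRIM47, ABHD3, GOLM1, BBS9, LINGO3 and ITGB7, with edgeR adjusted p from 0.0527 to 0.0538. In 5 of these, a pair of libraries of 1 line had no count in 1 condition. The exception was ITGB7, with a log2 fold change of 0.04 ± 0.27 (SE) in MM.1S and at 292 and 200 CPM with the guide in MPC-11, against 22.6 and 28.7 CPM with the empty vector (3.26 ± 0.29). LINGO3 was at 3.96 and 3.46 CPM with the guide in MM.1S and had no count there with the empty vector.

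**Figure D5:**
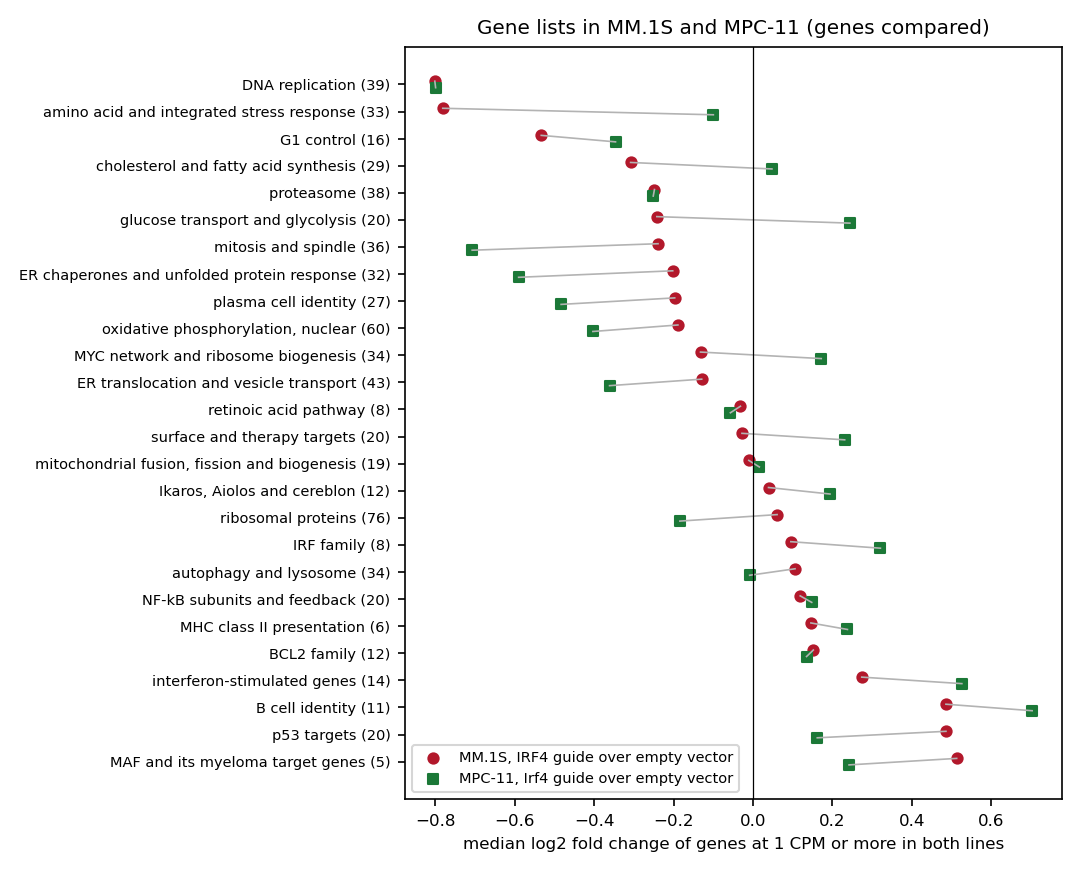
Median log2 fold change (guide over empty vector) of gene lists in MM.1S (red circles) and MPC-11 (green squares), over genes at 1 CPM or more on average in both lines, with the number of genes in brackets. The replication medians coincide at -0.80, while the amino acid list is at -0.78 in MM.1S and -0.10 in MPC-11.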

How the data were processed

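RNA was sequenced from 4 MM.1S libraries. Per the labels' protocols, a column kit gave total RNA, from which cDNA libraries were prepared with Nextera reagents. Subread 1.6.0, featureCounts, limma and the builds hg38 and mm10 appear in the submitters' processing notes; annotation, strand setting and filters are not given in the sources used here. The authors deposited raw gene-level counts. They also deposited log2 FPKM values per library (scaled for gene length and depth, offset not given), used as an alternative only. The 450 entries without a symbol, 0.0383% to 0.104% of counts, and 6 count columns not mapped to samples used here were left out.

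Counts were fitted on the 4 libraries with edgeR 4.0.16 in R 4.3.3 (TMM, filterByExpr with minimum count 10, quasi-likelihood F test, Benjamini-Hochberg over all genes tested, threshold 0.05). DESeq2 1.42.0 was run on the same genes, and limma 3.58.1 on log2 FPKM. SE is the fold change over the square root of F. The spread was wide (common biological coefficient of variation 0.412, 2 residual degrees of freedom). Replicates differed far beyond counting error (chi-square over degrees of freedom 39 for the guide pair and 79.5 for the empty vector pair). Pairs across conditions had 75.6 to 110. Each library was counted as its own sample, though such a spread does not show that they came from separate cultures. The scripts were tested on simulated data. Floors are 3 counts over a group. The immunoglobulin share was compared with a two-sided exact permutation test. The effect in MPC-11 was compared by an interaction contrast over 8 libraries; restricting its list summaries to 1 CPM was chosen after seeing the data.

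Members and gene lists were chosen with earlier results of these data known. Named genes are IRF4 and its family, edgeR's calls, the 12 largest changes in each direction under the conditions given, up to 3 genes per direction absent from 1 group, up to 4 of smallest p per list, 6 of the interaction, and marker genes. MYC, ATF4, CIITA, ICAM1, CD44, CXCL10, CXCL16, MAF, IGLV2-14, RARA and the genes at 0 in MPC-11 were chosen after their values were seen. So were KLF2, FOXO1, FCRL5, PLK3, PMAIP1, CDKN1A and IGHG1. Alternatives were other scalings, filters, tools, the replicate block, removal of immunoglobulin genes and leaving out each library. Some genes that the rule names are not reported here.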

Additional observations from a re-analysis of the deposited data

How the results depend on the processing

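Only 2 libraries per group limited every test. The count of genes called, 1 in edgeR, was 374 with DESeq2, 289 with no filter on low counts, 33 at 1 CPM or more in each library and 9 with limma on log2 FPKM, and ran from 0 to 966 when 1 library was left out, 966 without empty vector replicate 1. The count was also 1 with DESeq2 size factors, scaling by size alone or no immunoglobulin genes. DESeq2's 374 calls became 1183 without empty vector replicate 1, 282 without replicate 2, 58 without guide replicate 1 and 50 without guide replicate 2, fits added after seeing the data. IRF4's log2 fold change passed edgeR's threshold at -1.49 with no filter (adjusted p = 0.000227) and at -1.47 at 1 CPM or more (adjusted p = 0.0222), and DESeq2's at -1.49. Leaving out 1 library gave -1.71 to -1.28. With the replicate number as a block, edgeR called 208 genes and IRF4 was at -1.49 (adjusted p = 0.00456), and DESeq2 called 392; same-numbered libraries deviated together with a correlation of only 0.0762 and the labels tie them to nothing else. For the difference between lines, 0 calls became 2 at 1 CPM or more, 100 with DESeq2 and 0 to 34 when 1 library was left out. The immunoglobulin difference was -1.65 to -1.16 when 1 library was left out.

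Of 1698 values of 143 named genes, 10 changed sign, in 7 genes that passed no test. Over the fits without 1 library, the log2 fold change ran from -0.0598 to 0.953 for IRF3, -0.0997 to 1.13 for RARG, -0.265 to 0.487 for IRF7, -0.0625 to 0.343 for IRF2, -0.312 to 0.207 for IRF5 and -3.66 to 1.29 for DHRS3. The turned values of IRF3, RARG, IRF7 and IRF2 came without empty vector replicate 2 and those of DHRS3 and IRF5 without replicate 1. RARA ran from -0.705 without guide replicate 1 to 0.489 without guide replicate 2, and was at -0.34 without empty vector replicate 2, -0.048 with the block and -0.0533 on log2 FPKM. Of 28 list medians, 10 changed sign under some alternative. The causes were not tested.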
